A study of Ericerus pela with 2 samples.

Results

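A set of 59 unigenes (assembled transcript fragments) for the germline, PIWI-interacting RNA (piRNA) and small RNA pathways was compared between male prepupae and male pupae of the scale insect Ericerus pela, whose males secrete a white wax. The 59 were all unigenes, of 120710 in the 2 tables together, whose database match contained piwi, aubergine, argonaute, dicer, drosha, tudor, vasa, maelstrom, nanos, pumilio, exportin-5, loquacious, pasha or spindle-E. The keyword rule itself uses no measured value, but it was chosen with earlier results of these data known. Loquacious, pasha and spindle-E matched 0 unigenes under those words, although 4 unigenes named partner of drosha stand for pasha and came in through the word drosha. The proteins with a germline role (aubergine, piwi, argonaute 3, tudor, vasa, maelstrom, nanos and pumilio) held 26 unigenes. The general small RNA factors (drosha, pasha, exportin-5, the dicers, argonaute-1, argonaute-2 and the tudor nuclease Tudor-SN) held 33.

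Each stage was represented by 1 library, labelled male, wild type and with an age of 90 of which the unit is not given. The labels give the whole body as the tissue, while the submitters' design note names the retina and states that there was no replicate. The libraries are read below as whole body, which is an assumption. With 1 library against 1 library, no p-value across samples can be given. Transcripts matched by lists of photoreceptor, muscle, fat body and cuticle names were present in both libraries. Their summed reads in prepupae and pupae were 494 and 2267 for photoreceptor, 6820 and 12139 for muscle, 1212 and 522 for fat body and 169 and 1348 for cuticle names. The photoreceptor list of 39 unigenes includes matches to other proteins, and without these the sums were 301 and 1491 on 21 unigenes.

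Small RNAs guide Argonaute proteins to complementary RNA. In insects such as Drosophila, microRNAs are cut from hairpin transcripts by Drosha with its partner Pasha in the nucleus, exported, cut again by Dicer-1 and loaded into Argonaute-1, which acts in most tissues. Small interfering RNAs are cut from long double-stranded RNA by Dicer-2 and loaded into Argonaute-2, a route known for defence against viruses. The piRNAs are made without Dicer, are bound by the PIWI proteins and silence mobile elements, chiefly in the gonads, where Tudor, Vasa and Maelstrom work with them in granules around the germ cell nucleus.

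The pupal library held 84.4% as many uniquely assigned reads as the prepupal library, and a count of 0 allows a level of up to 1.37 RPM (reads scaled to the library total) in prepupae and 1.63 RPM in pupae. The members took 0.144% of all reads in prepupae and 0.0575% in pupae. Calls of higher or lower expression in pupae required that log2((RPKM + 1) in pupae over (RPKM + 1) in prepupae) reached 1 or −1, a 2-fold rule of size. They were made for the 113976 unigenes whose RPKM averaged 1 or more over both libraries. RPKM counts reads per kilobase of unigene length, scaled to the library total. Folds of named unigenes and of sums are ratios of RPM, given with the exact 95% counting interval, which covers counting error only. By the rule 39.4% of all filtered unigenes were lower in pupae and 23.0% were higher, and among those with a database match 41.4% and 14.7%. The median log2 ratio was −0.49 for all filtered unigenes and −0.68 for those with a database match. After centring on the median of all filtered unigenes (1 of 3 other scalings tried) 35653 were lower and 34176 higher in place of 44893 and 26264.

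Germline transcripts were mostly lower in pupae, and general small RNA transcripts less so. Of the 26 germline unigenes, all of which passed the RPKM filter, 22 were lower (84.6%, against 39.4% of all unigenes), 1 was higher and 3 were neither. Their summed reads went from 1715 to 340, or from 786 to 185 RPM, 4.26-fold lower (95% counting interval 3.79 to 4.79). Of the 31 general unigenes that passed, 19 were lower (61.3%), 0 were higher and 12 were neither. Some of the 19 calls rest on few reads, down to 1 prepupal and 0 pupal reads. The reads of all 33 general unigenes summed to 1426 and 719, 1.67-fold lower (1.53 to 1.83). The germline sum was thus lower by a factor 2.54 (2.19 to 2.96) beyond the general sum, a ratio that no scaling of the libraries can alter. Germline unigenes made up 54.6% of all member reads in prepupae (exact binomial interval 52.8 to 56.4) and 32.1% in pupae (29.3 to 35).

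The gap between the classes depended on the filter. Over the filtered unigenes the median log2 ratio was −1.98 for germline and −1.27 for general members. With at least 50 reads over both libraries, 14 of 15 germline unigenes were lower, against 36.2% of all such unigenes and 40.1% of those with a database match. Of the 14 general unigenes at this depth 6 were lower (42.9%), a share near that background, and none of the 29 members was higher, against 19.8% and 15.4%. The median log2 ratio at this depth was −2.02 for germline and −0.89 for general unigenes, beside −0.49 for all. For all those with a database match it was −0.65. Among unigenes of at least 500 bases, all 12 germline and 11 of 16 general unigenes were lower, against 37.7%. Their medians, −2.07 and −1.71, lay closer together than under the other 2 filters. The summed reads at this length, over all 17 general unigenes, were 4.49-fold lower for germline and 2.18-fold lower for general members. The ratio of these folds was 2.06 (1.70 to 2.50).

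**Figure D1:**
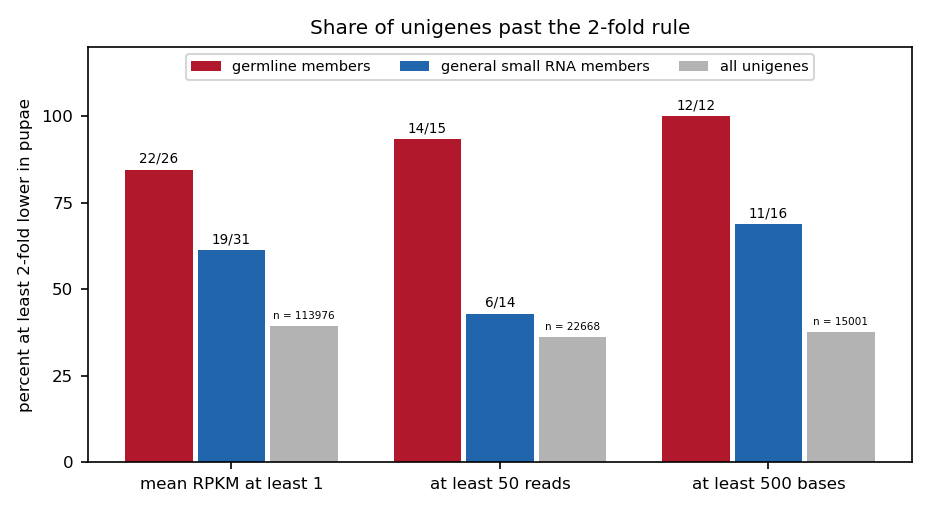
Percent of unigenes at least 2-fold lower in pupae (y axis) for germline members, general small RNA members and all unigenes, under each of 3 filters (x axis); labels give the number lower over the number tested, or the number tested. Germline bars stand at 84.6% or above, while the general bar at 50 reads or more (42.9%) lies near that of all unigenes (36.2%).

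**Figure D2:**
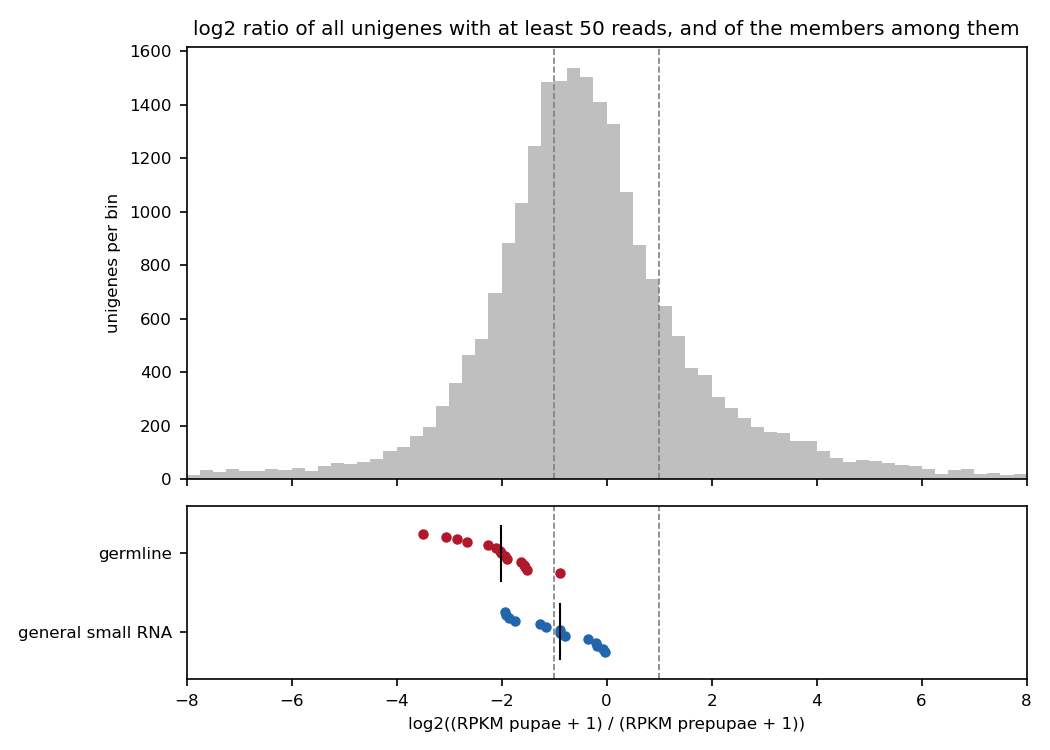
Top, number of unigenes with at least 50 reads per bin of the log2 ratio of pupae to prepupae (x axis, from −8 to 8, with 147 unigenes beyond these limits not shown); bottom, each member with at least 50 reads as a point, spread vertically for view, with the median as a black bar. Dashed lines mark the 2-fold rule; 14 of 15 germline points lie left of −1, and 6 of 14 general points do.

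The PIWI proteins, which bind piRNAs, were lower in pupae as a group. Aubergine, the cytoplasmic PIWI protein of the Drosophila germline, matched 7 unigenes with 546 prepupal and 109 pupal reads in sum, 4.23-fold lower (3.43 to 5.24), and 6 of the 7 were called lower. The 1133-base aubergine unigene had 132 prepupal reads (53.4 RPKM) and 36 pupal reads (17.3 RPKM), 3.09-fold lower (2.13 to 4.61). The 686-base unigene had 135 prepupal reads (90.2 RPKM) and 17 pupal reads (13.5 RPKM), 6.70-fold lower (4.03 to 11.8). These 2 had nearly equal reads in prepupae, but per length the 686-base unigene was higher there and somewhat lower in pupae. Their fold intervals overlap.

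The remaining aubergine unigenes had lower levels in pupae too, by unequal factors. The 894-base unigene had 83 prepupal reads (42.5 RPKM) and 15 pupal reads (9.11 RPKM), and the 271-base unigene had 64 prepupal reads (108 RPKM) and 6 pupal reads (12.0 RPKM). The latter had the largest fold of the 7, 9.00 (3.91 to 25.4). The 450-base and 431-base unigenes had 51 and 11, and 43 and 7 reads. The 304-base unigene stayed short of the rule at 38 and 17 reads, 1.89-fold lower (1.04 to 3.56). Its interval does not overlap that of the 686-base unigene, so the aubergine-named fragments did not all share 1 ratio within counting error.

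Unigenes named piwi, after the nuclear PIWI protein of Drosophila, were 4 in number and all were called lower. Their reads summed to 168 and 37, 3.83-fold lower (2.67 to 5.63). The 593-base unigene had 72 prepupal reads (55.6 RPKM) and 20 pupal reads (18.3 RPKM), and the 453-base unigene had 53 prepupal reads (53.6 RPKM) and 15 pupal reads (18.0 RPKM). Both were about equally lower, 3.04-fold and 2.98-fold. The 611-base unigene went from 27 reads (20.3 RPKM) to 0, at least 7.59-fold lower when 0 is read as a floor of 3 counts. The shortest, of 156 bases, had 16 and 2 reads. Because aubergine and piwi are close relatives, a best match by name does not settle which of them a fragment belongs to.

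Argonaute 3, the PIWI protein that pairs with Aubergine in the amplification of piRNAs, had the larger relative difference among these families. Its 1153-base unigene had 66 prepupal reads (26.2 RPKM) and 3 pupal reads (1.41 RPKM), 18.6-fold lower (6.08 to 92.3). Its 494-base unigene went from 8 reads to 0, at least 2.25-fold lower. Together they were 20.8-fold lower (6.85 to 103), an interval that lies above that of aubergine. All 13 PIWI unigenes together had 788 and 149 reads, 4.46-fold lower (3.74 to 5.35).

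Tudor, a scaffold with many domains that bind methylated arginines of PIWI proteins, carried the most germline reads. Its 7 unigenes had 818 prepupal and 164 pupal reads, 4.21-fold lower (3.55 to 5.01), and 6 were called lower. They took 47.7% of germline reads in prepupae and 48.2% in pupae, so the share hardly moved. The longest member of all, a 2261-base maternal tudor unigene, had 252 prepupal reads (51.1 RPKM) and 66 pupal reads (15.9 RPKM), 3.22-fold lower (2.45 to 4.29). The 1772-base unigene had 153 prepupal reads (39.6 RPKM) and 15 pupal reads (4.60 RPKM), 8.60-fold lower (5.06 to 15.8). These intervals do not overlap, so the long tudor-named unigenes also differed among themselves.

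Between these extremes lay most of the other tudor unigenes. The 1362-base unigene had 158 prepupal reads (53.2 RPKM) and 31 pupal reads (12.4 RPKM), and the 1253-base unigene had 125 prepupal reads (45.7 RPKM) and 24 pupal reads (10.4 RPKM). The 944-base unigene had 74 prepupal reads (35.9 RPKM) and 15 pupal reads (8.63 RPKM). Their folds were close, from 4.16 to 4.39. A 551-base unigene named tudor domain containing 1, after a mammalian germline protein, had 39 and 5 reads, 6.58-fold lower (2.59 to 21.4). The 324-base unigene, with 17 and 8 reads, was 1.79-fold lower (0.733 to 4.80), an interval that spans no difference, and was not called.

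Other piRNA pathway proteins had few reads. Maelstrom, which Drosophila needs for transposon silencing, had 30 prepupal reads (69.1 RPKM) and 1 pupal read (2.73 RPKM) on 1 unigene of 199 bases, 25.3-fold lower (4.21 to 1033). Vasa, a DEAD-box helicase that marks germ cells in most animals, had 39 and 11 reads on 2 unigenes, 2.99-fold lower (1.5 to 6.48). Both vasa unigenes were called lower: that of 316 bases had 23 and 5 reads and that of 295 bases 16 and 6. Unigenes named vasa were therefore detected in both stages, although a best match on such short fragments does not settle that they come from vasa. A further unigene, outside the keyword choice and picked out after its values were seen, was named TDRD9, the mouse relative of the fly helicase spindle-E. It had 63 prepupal reads (67.8 RPKM) and 1 pupal read (1.28 RPKM), 53.1-fold lower (9.20 to 2132).

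Nanos and Pumilio, partners in repressing translation in germline stem cells of Drosophila, gave no clear picture. Nanos had 4 prepupal reads (3.80 RPKM) and 3 pupal reads (3.37 RPKM) on 1 unigene, with a counting interval of the fold from 0.190 to 7.68, so that a difference was not detectable at this depth and its direction flipped under the other scalings. A 204-base unigene matching pumilio homolog 1 had 36 prepupal reads (80.9 RPKM) and 10 pupal reads (26.6 RPKM), 3.04-fold lower (1.48 to 6.86). Pumilio also acts outside the germline. The other pumilio unigene had 0 and 2 reads, below the floor of 3 counts, and it is the single member called higher.

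**Figure D3:**
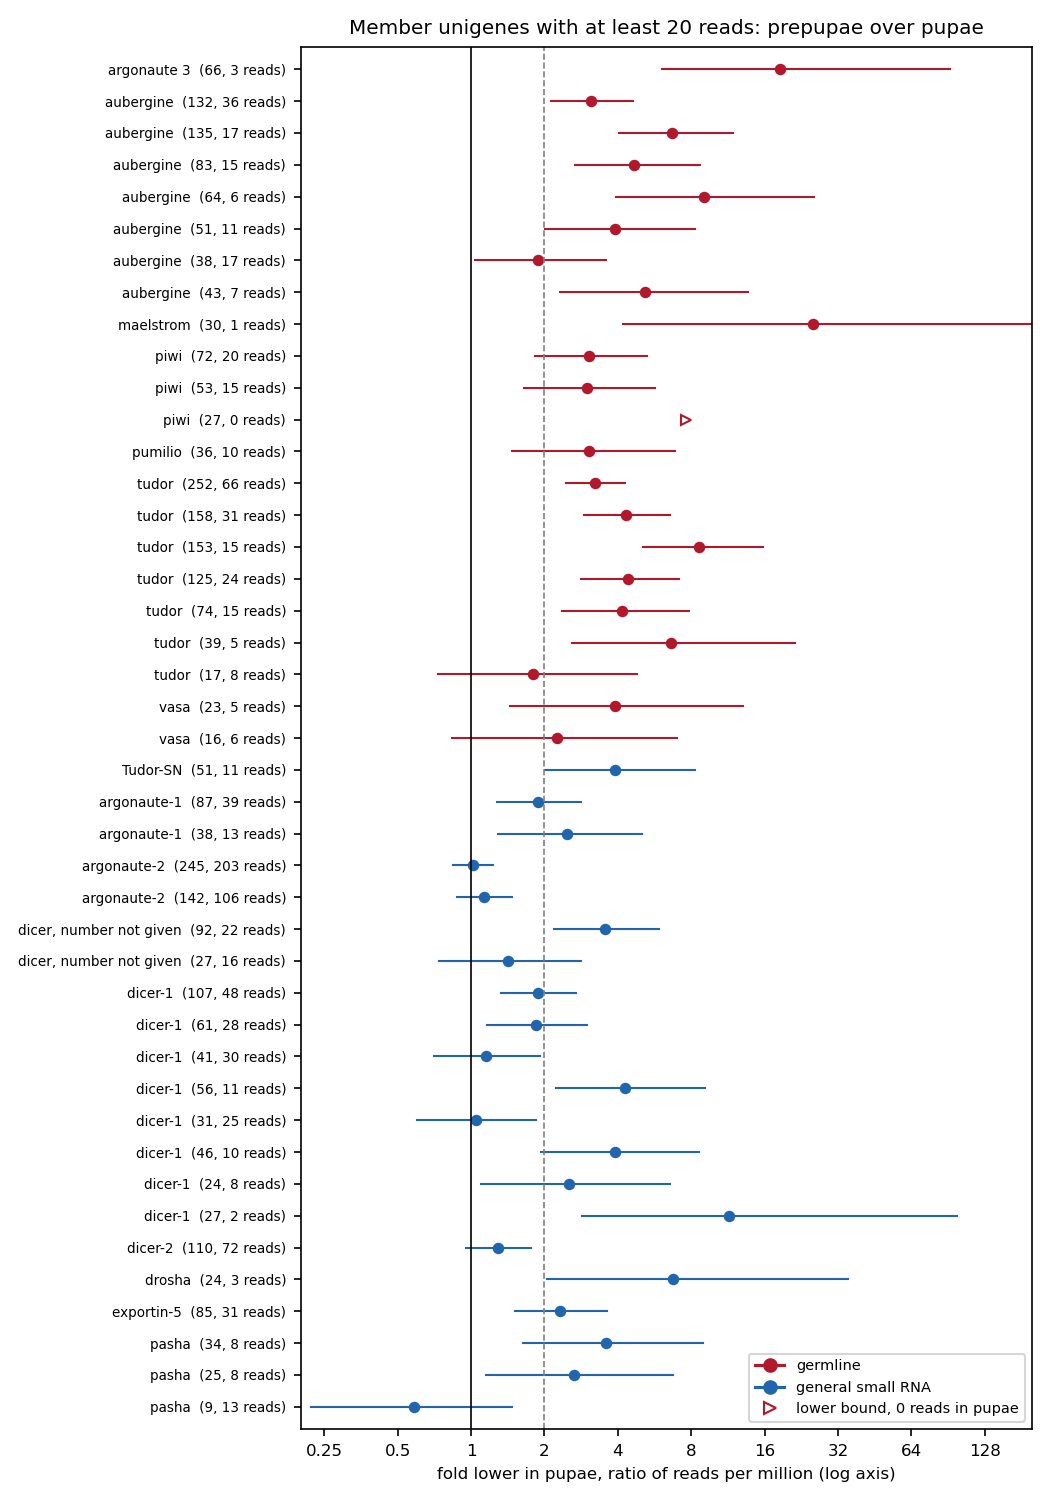
Fold lower in pupae (x axis, log scale, ratio of RPM) for the 43 members with at least 20 reads over both libraries, with 95% counting intervals; the row labels give reads in prepupae and pupae. The solid line marks no difference and the dashed line a 2-fold difference; the interval of maelstrom runs past the right edge, to 1033. Red germline points lie mostly right of the dashed line, and blue points for argonaute-2, dicer-2 and part of dicer-1 lie between the lines.

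Markers of dividing cells moved with the germline transcripts. In a list of replication and mitosis genes, 41 of 46 unigenes were lower in pupae (89.1%, against 39.4% of all unigenes). None were higher, against 23.0%, and 4 were at 0 reads in pupae and 0 in prepupae. Their summed level went from 1079 to 238 RPM, 4.53-fold lower (4.09 to 5.02). The ratio of the germline fold to this fold was 0.940 (0.803 to 1.10), an interval that includes 1. In a list of testis, sperm and meiosis names, 14 of 33 unigenes were lower, 3 higher and 16 neither, with 2 at 0 in pupae. Its lower share, 42.4%, was near the background of 39.4%. Its summed level was 664 and 867 RPM, 1.31-fold higher (1.22 to 1.40), a sum that turned to 1.56-fold lower (1.43 to 1.72) without a serine protease named after testis, with 0 and 805 reads, and pelota, an mRNA surveillance factor. The part of dividing cells and of testis content in the germline values was not tested. In whole-body RNA, the cells that the germline-named reads came from are not known. A change in the mix of cells and a change of RNA per cell cannot be told apart.

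Among general factors, the nuclear step of microRNA production was represented thinly. Drosha, the nuclease of this step, had 24 prepupal reads (20.6 RPKM) and 3 pupal reads (3.05 RPKM) on 1 unigene, 6.75-fold lower (2.05 to 35). Pasha, its RNA-binding partner, had 4 unigenes with 76 and 33 reads in sum, 1.94-fold lower (1.28 to 3.02). The 465-base pasha unigene had 34 and 8 reads and that of 356 bases 25 and 8, both called lower. The 155-base unigene had 9 and 13 and that of 298 bases 8 and 4, and neither was called. After centring or with either other scaling, the 155-base unigene is called higher. The ratio of the drosha fold to the pasha fold, 3.45 (0.946 to 19.1), has an interval that includes 1. Another pair of unigenes outside the keyword choice, named DGCR8 after the vertebrate form of pasha, was picked out after its values were seen and held 38 and 14 reads, 2.29-fold lower (1.21 to 4.58).

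Exportin-5, which carries microRNA precursors out of the nucleus in mammals, had 85 prepupal reads (38.4 RPKM) and 31 pupal reads (16.6 RPKM), 2.31-fold lower (1.52 to 3.61). Dicer-2, which cuts long double-stranded RNA, had 110 prepupal reads (61.6 RPKM) and 72 pupal reads (47.8 RPKM) on 1 unigene of 818 bases, 1.29-fold lower (0.949 to 1.76). Its interval includes no change, and the fold turned to 0.980 with TMM scaling (trimmed mean of M-values) and 0.917 after centring on the median of all unigenes, where values below 1 mean higher in pupae. Unigenes named dicer without a number were 2. A 964-base match to the pea aphid had 92 prepupal reads (43.7 RPKM) and 22 pupal reads (12.4 RPKM), 3.53-fold lower (2.20 to 5.90), and a 211-base match to a tapeworm had 27 and 16 reads, 1.42-fold lower (0.740 to 2.83).

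Dicer-1, which cuts microRNA precursors, matched the most unigenes, and they split. Its 12 unigenes had 410 prepupal and 167 pupal reads, 2.07-fold lower (1.73 to 2.49). Of the 11 that passed the RPKM filter 6 were called lower and 5 neither. Among the 6 is a 228-base unigene with 1 prepupal and 0 pupal reads, below the floor of 3 counts, so that its call carries no weight. The most abundant, of 706 bases, had 107 prepupal reads (69.5 RPKM) and 48 pupal reads (36.9 RPKM), 1.88-fold lower (1.33 to 2.70), and the longest, of 1950 bases, had 61 prepupal reads (14.3 RPKM) and 28 pupal reads (7.80 RPKM), 1.84-fold lower (1.16 to 2.99). These 2 stayed just short of the rule.

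A pair of dicer-1 unigenes was almost level. That of 284 bases had 31 prepupal reads (50.02 RPKM) and 25 pupal reads (47.8 RPKM), 1.05-fold lower (0.598 to 1.85), and that of 557 bases had 41 prepupal reads (33.7 RPKM) and 30 pupal reads (29.3 RPKM), 1.15-fold lower (0.703 to 1.91). Both turned to higher in pupae under each of the 3 other scalings, with values of 0.744 and 0.821 after centring. Other dicer-1 unigenes had intervals well above 1. The 1107-base unigene had 56 prepupal reads (23.2 RPKM) and 11 pupal reads (5.40 RPKM), 4.29-fold lower (2.23 to 9.09), the 502-base unigene had 46 and 10 reads, 3.88-fold lower (1.93 to 8.62), and the 668-base unigene had 27 and 2, 11.4-fold lower (2.86 to 98.8). The intervals of these last 3 do not overlap those of the level pair. The files do not show whether the dicer-1 unigenes come from 1 gene or several. The 363-base unigene had 24 and 8 reads, and the other 4 dicer-1 unigenes had from 1 to 14 reads in total.

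Argonaute-1, the main carrier of microRNAs, had 2 unigenes. That of 545 bases had 87 prepupal reads (73.2 RPKM) and 39 pupal reads (38.9 RPKM), 1.88-fold lower (1.28 to 2.82), and that of 259 bases had 38 prepupal reads (67.2 RPKM) and 13 pupal reads (27.3 RPKM), 2.47-fold lower (1.28 to 5.05). Together they were 2.03-fold lower (1.46 to 2.86), close to dicer-1, and the ratio of the 2 folds was 0.979 (0.667 to 1.45). Against the PIWI proteins, which belong to the same protein family, argonaute-1 was less reduced: the PIWI fold was 2.20 (1.49 to 3.22) times that of argonaute-1.

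Unigenes named argonaute-2, after the carrier of small interfering RNAs, fell into 2 sets. A best match by name does not settle whether both sets come from the same gene. The 238-base unigene had 245 prepupal reads (472 RPKM) and 203 pupal reads (463 RPKM), 1.02-fold lower (0.842 to 1.23), and the 157-base unigene had 142 prepupal reads (414 RPKM) and 106 pupal reads (367 RPKM), 1.13-fold lower (0.873 to 1.47). They were the 2 members with the highest RPKM in each stage and were level within counting error, but each turned to higher in pupae under all 3 other scalings. The other 7, of 329 to 1615 bases, had 1.83 to 7.10 RPKM in prepupae. Together these 7 had 39 prepupal and 3 pupal reads, 11-fold lower (3.49 to 55.5), and 6 of them had 0 reads in pupae. Per base, the level of the 2 short unigenes together was 449 RPKM in prepupae against 3.72 for the 7 longer ones. The 2 short unigenes held 387 of 1426 general reads in prepupae and 309 of 719 in pupae. Without them the general sum was 2.14-fold lower (1.91 to 2.40) in place of 1.67, and the ratio of germline to general fold 1.99 (1.69 to 2.35). The sum over all argonaute-2 unigenes, 1.15-fold lower (0.993 to 1.34), turned to 0.875 with TMM scaling, 0.910 with DESeq2 size factors and 0.820 after centring.

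**Figure D4:**
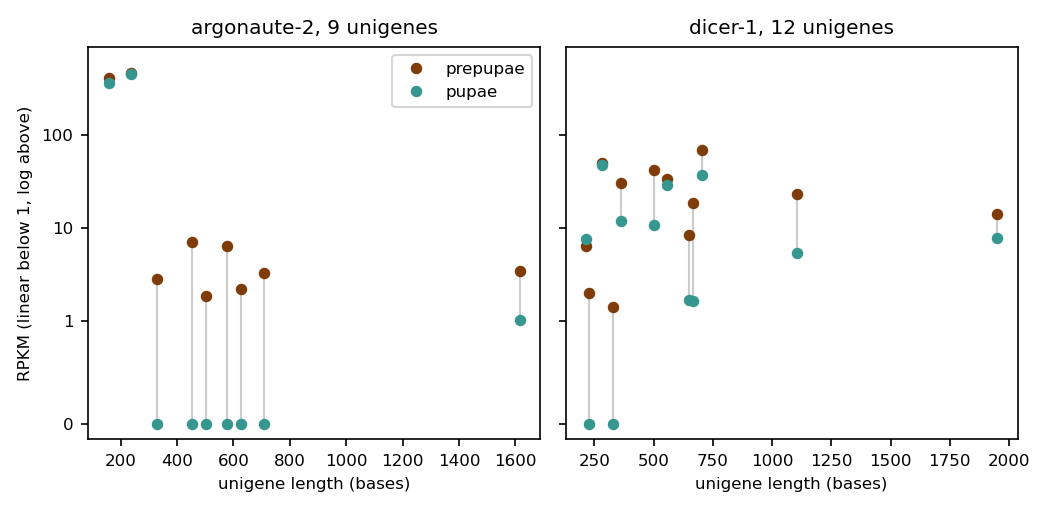
RPKM (y axis, linear below 1 and logarithmic above) against unigene length in bases (x axis) for the 9 argonaute-2 and the 12 dicer-1 unigenes, with prepupae in brown and pupae in green and a grey line joining the 2 stages of a unigene. The 2 shortest argonaute-2 unigenes stand at 367 RPKM or more in both stages, and 6 of the longer ones are at 0 in pupae.

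Tudor-SN, a nuclease with a tudor domain found in RNA silencing complexes, had 51 prepupal reads (131 RPKM) and 11 pupal reads (33.6 RPKM) on a 178-base unigene, 3.91-fold lower (2.01 to 8.32). Its interval overlaps those of aubergine, piwi and tudor as well as that of argonaute-1. Gawky, the GW182 protein that joins Argonaute-1 to the machinery that shortens mRNA tails, went the other way. It lies outside the keyword choice and was picked out after its values were seen. Its 3 unigenes had 22 and 45, 12 and 36, and 7 and 24 reads in prepupae and pupae. All 3 were called higher, and the sum of 41 and 105 reads was 3.04-fold higher (2.10 to 4.47).

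Levels per length ordered the families differently in the 2 stages. In prepupae Tudor-SN stood highest at 131 RPKM (95% Poisson interval 97.8 to 173), followed by argonaute-1 at 71.2, maelstrom at 69.1, dicer-2 at 61.6 and aubergine at 60.0. These last 4 overlapped in their intervals, and that of maelstrom, up to 98.6, just reached that of Tudor-SN. Tudor at 44.3 and piwi at 42.5 were not separable either. In pupae the first places went to general factors, with dicer-2 at 47.8 RPKM, argonaute-1 at 35.1, Tudor-SN at 33.6 and argonaute-2 at 32.6. Of these 4, only dicer-2 and argonaute-2 had intervals that do not overlap, and 309 of the 312 pupal argonaute-2 reads lay on its 2 short unigenes. Aubergine at 14.2 (11.7 to 17.1) and tudor at 10.5 (8.97 to 12.3) stood below these except Tudor-SN, whose interval of 16.8 to 60.1 reaches down to that of aubergine. The other general families did not stand apart above the germline ones in pupae. Exportin-5 was at 16.6 RPKM and dicer-1 at 12.0, with pasha between them and the dicers without a number just above exportin-5. All of their intervals overlapped that of aubergine. Drosha, at 3.05, lay below both aubergine and tudor.

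**Figure D5:**
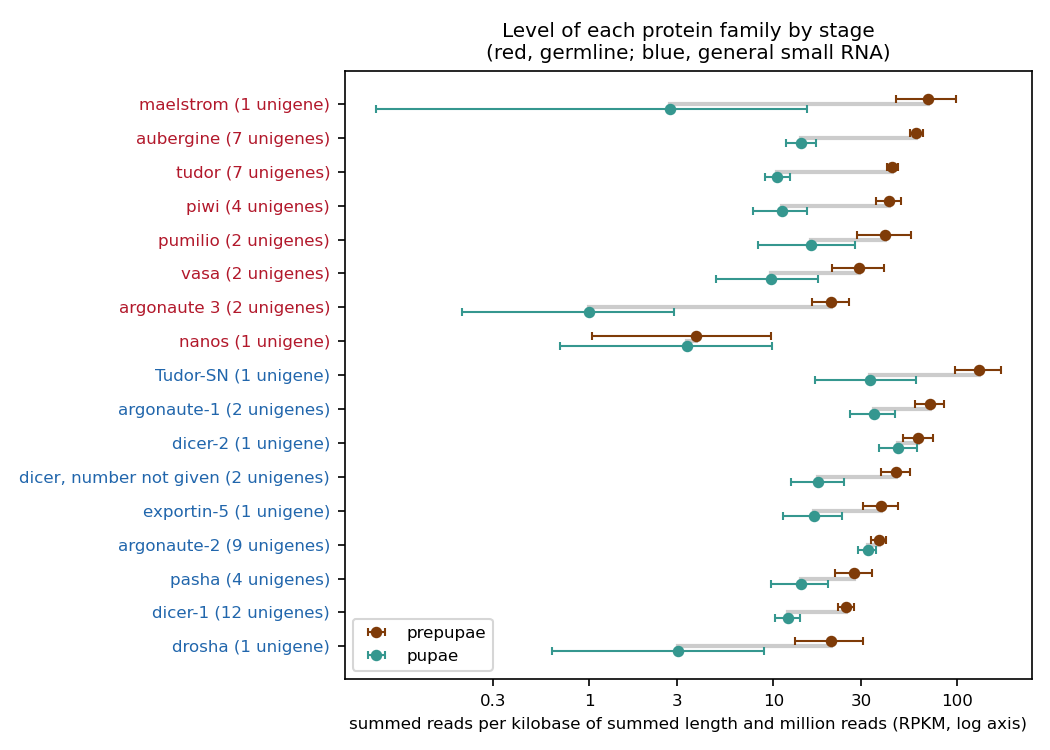
Level of each protein family in prepupae (brown) and pupae (green), as RPKM of the summed reads over the summed unigene length (x axis, log scale), with 95% Poisson intervals; families are ordered within the germline (red) and general (blue) names by their prepupal level. Every family is lower in pupae on the deposited scale, but nanos, dicer-2 and argonaute-2 have overlapping intervals and turn to higher under at least 1 other scaling.

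The PIWI proteins as a group and the other germline unigenes differed between stages by similar factors, although argonaute 3 alone lay above aubergine. The PIWI fold was 1.06 (0.826 to 1.36) times the tudor fold, and 1.09 (0.856 to 1.39) times that of all other germline unigenes, intervals that include 1. Aubergine's share of germline reads was 31.8% in prepupae and 32.1% in pupae. Within the general class, the dicer-1 fold was 1.61 (1.12 to 2.30) times the dicer-2 fold, an interval above 1. Over all members, 56 of 59 had a lower RPKM in pupae and 3 a higher one, and the counting interval lay wholly on the lower side for 22 germline and 17 general unigenes. No member had an interval wholly on the higher side. With 0 reads in pupae were 2 germline and 8 general unigenes, and all of them except the 611-base piwi unigene had at most 8 reads in prepupae.

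The members were longer than the unigenes at large, with a median of 494 bases against 254. Their matches came from 16 named species, most often the pea aphid Acyrthosiphon pisum (9 unigenes). Gene Ontology process terms were attached to 8 germline and 11 general members. Terms of reproduction, gametes or germ cells stood with 5 of the germline members and 1 of the general ones, and terms of RNA interference or gene silencing with 2 and 9. Across the filtered unigenes of a class, Spearman's rho between length and log2 ratio was −0.21 for 26 germline and −0.32 for 31 general unigenes, a description over unigenes that share 2 libraries.

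Further genes of RNA silencing were taken by keyword. Of 35 unigenes, 23 were lower (65.7%, against 39.4%), 3 were higher and 9 were neither. The median log2 ratio was −1.38, beside −0.49 for all unigenes and −0.68 for those with a database match. This list includes exportins of other cargo. Without these and 2 other protein names it had 10 of 18 lower and a median of −1.03. Translin associated protein X, part of an endonuclease that helps to load small interfering RNAs in Drosophila, had 2 unigenes, of which the larger in reads had 125 prepupal reads (79.2 RPKM) and 2 pupal reads (1.5 RPKM), 52.7-fold lower (14.3 to 440.2). Mov10 helicases, which accompany Argonaute proteins in mammals, had 324 and 141 reads on 5 unigenes, 1.94-fold lower (1.59 to 2.38). Arsenite-resistance protein 2, which links capped transcripts to microRNA processing, had 338 and 148 on 4, 1.93-fold lower (1.58 to 2.35). The TAR RNA-binding protein 2 unigene, the vertebrate counterpart of loquacious and named here after its values were seen, had 32 and 10 reads, 2.70-fold lower (1.29 to 6.16).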

How the data were processed

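Total RNA of whole male insects was sequenced, 1 library a stage, on Illumina machines, per the labels' protocols. The deposited tables give, per the file headers, the count of uniquely assigned reads for each unigene, its RPKM, the percent of its length covered, its length and database matches. RPKM recomputed from the deposited counts, lengths and header totals for 100% of values (relative tolerance 1e-06). No assembler, aligner or annotation setting was stated in the labels or headers used here. Unigenes are fragments, so several can come from 1 transcript, and reads shared by near-identical copies are not in a unique count.

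The 2 tables were joined by unigene, and a unigene listed in 1 table was given 0 reads in the other. Calls used a pseudocount of 1 RPKM, a filter of mean RPKM of at least 1 and a 2-fold rule, with no test, since each group has 1 library. Folds are ratios of RPM (reads scaled to the library total) with exact Clopper-Pearson 95% intervals conditional on the summed reads, and levels have exact Poisson intervals. A count of 0 was read as a floor of 3 counts, and with 1 to 3 counts the ratio is given with its interval. Intervals cover counting error only. Total reads were 2182108 and 1840877. The fold calculation was checked on simulated data.

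Members with at least 20 reads over both libraries were named with values, and those with fewer by count or range, except nanos, the largest of a family wholly below this limit. Of the members below it, 1 unigene each of piwi, argonaute 3, pasha, pumilio and dicer-1 is also given with its reads, chosen after its values were seen. From other pathway lists the 6 unigenes with most reads, 1 per protein name, could be named, and others are said to be chosen after their values were seen. Members, lists and rules were chosen with earlier results of these data known. Alternatives were other pseudocounts, filters, fold rules, minimum lengths and reads, edgeR 4.0.16 TMM scaling, DESeq2 1.42.0 size factors and centring on the median of all unigenes. Leaving out the short argonaute-2 unigenes, or keyword matches that name another protein, was chosen after seeing the data. Scripts ran in Python 3.11.15 with numpy 2.4.6, pandas 2.3.3, scipy 1.17.1 and matplotlib 3.10.9, and in R 4.3.3.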

Additional observations from a re-analysis of the deposited data

How the results depend on the processing

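No result with a call changed direction, but for a single unigene the scalings, pseudocounts and filters used could not have reversed a 2-fold difference. What they could change is whether a fold reached 2. The germline sum was 3.23-fold lower with TMM scaling, 3.36-fold with DESeq2 size factors and 3.03-fold after centring. The general sum was 1.27-fold, 1.32-fold and 1.19-fold lower under the same 3, 1.93-fold without its unigene with most reads, 2.18-fold for unigenes of at least 500 bases and 2.14-fold without the argonaute-2 unigenes under 300 bases. These scalings moved the median log2 ratio of all unigenes from −0.49 to −0.13 (TMM) and −0.19 (DESeq2). After centring, the median log2 ratio was −1.49 for germline, −0.78 for general, −0.89 for further RNA silencing and −0.19 for other germ cell unigenes. Of 43 named members, 42 had a fold above 1 as deposited, 37 with TMM, 38 with DESeq2 and 37 after centring. A fold of at least 2 was held by 31 as deposited, 27 with TMM, 28 with DESeq2 and 26 after centring.

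Counts of calls moved as follows, and the length, read and RPKM filters also left fewer unigenes to count. Germline unigenes called lower numbered 12 at 500 bases or more and 14 at 50 reads or more, and 0 were higher under these or with a mean RPKM of at least 5. General unigenes called lower numbered 12 with a mean RPKM of at least 5, 11 at 500 bases and 6 at 50 reads, and 1 was higher with TMM, DESeq2, centring or a 1.5-fold rule. With all 31 kept, 14 were lower with TMM, 15 with DESeq2, and 14 after centring or with a pseudocount of 5, in place of 19. Of the 26 germline unigenes 21 were lower under each of these settings. Of all unigenes 33.4% were lower with TMM, 34.1% with DESeq2 and 31.3% after centring. Further RNA silencing unigenes called lower numbered 15 after centring, 5 at 500 bases, 13 at 50 reads and 10 without other proteins, with 0 higher at 500 bases and 1 at 50 reads. Other germ cell unigenes called lower numbered 9 with a pseudocount of 5, 9 with a mean RPKM of at least 5, 4 at 500 bases and 2 at 50 reads, and those higher 2 with TMM, 2 after centring and 0 at 500 bases or 50 reads.

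No paired analysis was possible because each group has 1 library. For members with few reads, counting error limits the fold: maelstrom and nanos rest on 1 unigene each, with 1 and 3 reads in pupae. Spread between animals is not known.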

Other observations

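Other RNA regulators of germ cells and embryos were lower in pupae about as often as unigenes at large. Of 33 filtered unigenes, 14 were lower in pupae (42.4%, near the background of 39.4%), 1 was higher and 18 were neither. The median log2 ratio was −0.68, beside −0.49 for all unigenes and also −0.68 for those with a database match. Several matches were other proteins, such as transcription factors named after gonadotropin, and without these 11 of 25 were lower. Bicaudal D, an adaptor of RNA transport by dynein, had 330 and 206 reads on 5 unigenes, 1.35-fold lower (1.13 to 1.62), and the sum turned to 0.962 (higher) after centring. Its most abundant unigene had 124 prepupal and 102 pupal reads. Boule, a regulator of male meiosis in Drosophila, had 25 prepupal and 20 pupal reads, and a cytoplasmic polyadenylation element binding protein had 24 and 19. Both lay close to no difference in RPM, 1.05-fold and 1.07-fold lower, and would be higher after centring.

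A few single genes of this list stood apart. Exuperantia, needed for RNA localisation and male fertility in Drosophila, had 41 prepupal and 8 pupal reads, 4.32-fold lower (2.0 to 10.7). The following were picked out after their values were seen. A unigene similar to the ovarian tumor protein went from 27 reads to 0, at least 7.59-fold lower. Staufen, which binds double-stranded RNA, had 35 and 6 reads on 2 unigenes, 4.92-fold lower (2.05 to 14.3). Held out wings, an RNA-binding protein of Drosophila muscle and testis, had 1 prepupal and 25 pupal reads, 29.6-fold higher (4.85 to 1217). Exportins other than exportin-5, which carry proteins and other cargo, had 12 of 14 unigenes lower and 631 and 172 reads in sum, 3.09-fold lower (2.61 to 3.68).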
